A study of Mus musculus with 3 samples.

Results

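The genes described here are 41 members of the apoptosis, p53 and DNA damage programmes in mouse blastocysts. They were taken from the 24063 genes of the count table by their symbol, and each of the 41 has a row there. They were sorted by role into 9 groups, among them the p53 core, the p53 targets in arrest and stress, the pro-apoptotic and the anti-apoptotic Bcl-2 family and the executors of cell death, and p53 targets that act in cell death or feedback stand in the groups of those roles. The study compared embryonic stem cells of 2 inbred mouse strains and then asked whether their preimplantation embryos differ in gene expression. Blastocysts were profiled in 3 low-input RNA-Seq libraries, 1 from the strain C57BL/6 (B6), which does not develop autoimmune diabetes, and 2 from NOD (NOD 1 and NOD 2), which develops it spontaneously. The labels give no treatment, transgene, age, sex or number of embryos for any library. They call the material whole blastocysts, whereas the study's methods describe single inner cell masses (ICMs) isolated by immunosurgery, and neither says whether NOD 1 and NOD 2 came from separate animals. Genes of the Y chromosome were counted in NOD 1 and were at 0 in NOD 2, so these libraries were not made from the same embryo or pool of embryos.

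p53, encoded by Trp53, is a transcription factor that is kept low by the ubiquitin ligase Mdm2 and its partner Mdm4, and is stabilized when the kinases Atm and Atr sense damaged DNA and activate Chek2 and Chek1. It raises transcription of genes that halt the cell cycle, such as Cdkn1a, of genes that kill the cell, such as Bbc3 and Pmaip1, and of Mdm2 itself, which closes a feedback loop. Cell death then depends on the balance of Bcl-2 family proteins at the mitochondrion, on cytochrome c and Apaf1, which activate Casp9, and on the caspases downstream. Some cells of the ICM die in the normal mouse blastocyst.

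Counts on genes summed to 12505685 in B6, 33891715 in NOD 1 and 36171013 in NOD 2, and levels are given as CPM, counts relative to the library total after scaling by edgeR's TMM factors. The 1 B6 library is the shallowest, and NOD alone has replicates. A count of 0 allows a level of up to 3 counts, which is 0.220 CPM for B6 and 0.0908 and 0.0882 CPM for the NOD libraries and covers counting error only. A call requires an edgeR quasi-likelihood adjusted p under 0.05 together with a 2-fold difference, and log2 fold changes are positive where NOD was higher. Of 14456 genes tested, 1483 (10.3%) were called higher and 1069 (7.39%) lower in NOD, with a median log2 fold change over them of 0.26, or 0.17 without NOD 1 and 0.11 without NOD 2. With scaling by total counts alone, 47.8% of the calls were higher in NOD, against 58.1% with TMM.

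The blastocyst label was checked against marker genes. The 8 markers of the ICM and epiblast together measured 2849 CPM in NOD 1 and 3817 in NOD 2 against 1240.4 in B6, the 9 of trophectoderm 3042 CPM in B6 and 1737 and 1606 CPM in the NOD libraries, and the 6 of primitive endoderm 391 CPM in B6 against 118 in NOD 1 and 158 in NOD 2, where Foxa2 was at 0 in every library. A single gene held most of the first and the last of these sums. Without Dppa5a the other ICM markers summed to 392 CPM for the B6 library against 598 and 851 CPM for the NOD libraries. Without Gata6, which was called lower in NOD, the other primitive endoderm markers summed to 6.31 CPM for the B6 library against 27.0 and 28.6 CPM for the NOD libraries, most of it Pdgfra, which was called higher. Of these markers, 3 ICM genes were called higher and 1 lower, no trophectoderm gene was called, and in the primitive endoderm 1 was called higher and 1 lower. Leukocyte, granulosa and fibroblast markers each summed to at most 3.24 CPM in any library, with Ptprc, Lyz2, Fcer1g, Cd79a, Fshr, Inhba, Cyp19a1, Has2, Col1a2, Col3a1 and Dcn at 0 in all 3. The part of the cell composition in the differences below was not tested, and in bulk libraries fewer cells of a type and less RNA per cell cannot be told apart.

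Of the 41 members, 39 passed the filter on low counts and were tested. Of these 39, 7 (17.9%) were called lower in NOD, against 7.39% of all tested genes, and 4 were called higher, a share of 10.3% that is also the share among all tested genes. The median log2 fold change of the 39 was -0.63, which stayed the same when the members at 0 in B6 were set to their bound. Both NOD libraries lay below B6 for 24 of the 39, against 39.4% of all tested genes, and both lay above for 12, against 45.3%. The 7 lower genes were Mdm2, Cdkn1a, Trp53inp1, Zmat3, Phlda3, Bbc3 and Apaf1, each of them a textbook target of p53. The 4 higher genes were Bok, Casp6, Diablo and Chek1. The calls rest on the choice of test. With limma-voom, and with edgeR without a filter on low counts, no member and no gene in the table was called, although 17 and 16 members had an unadjusted p under 0.05 (18 in edgeR with the filter), and DESeq2 called 10 members lower and 4 higher.

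**Figure D1:**
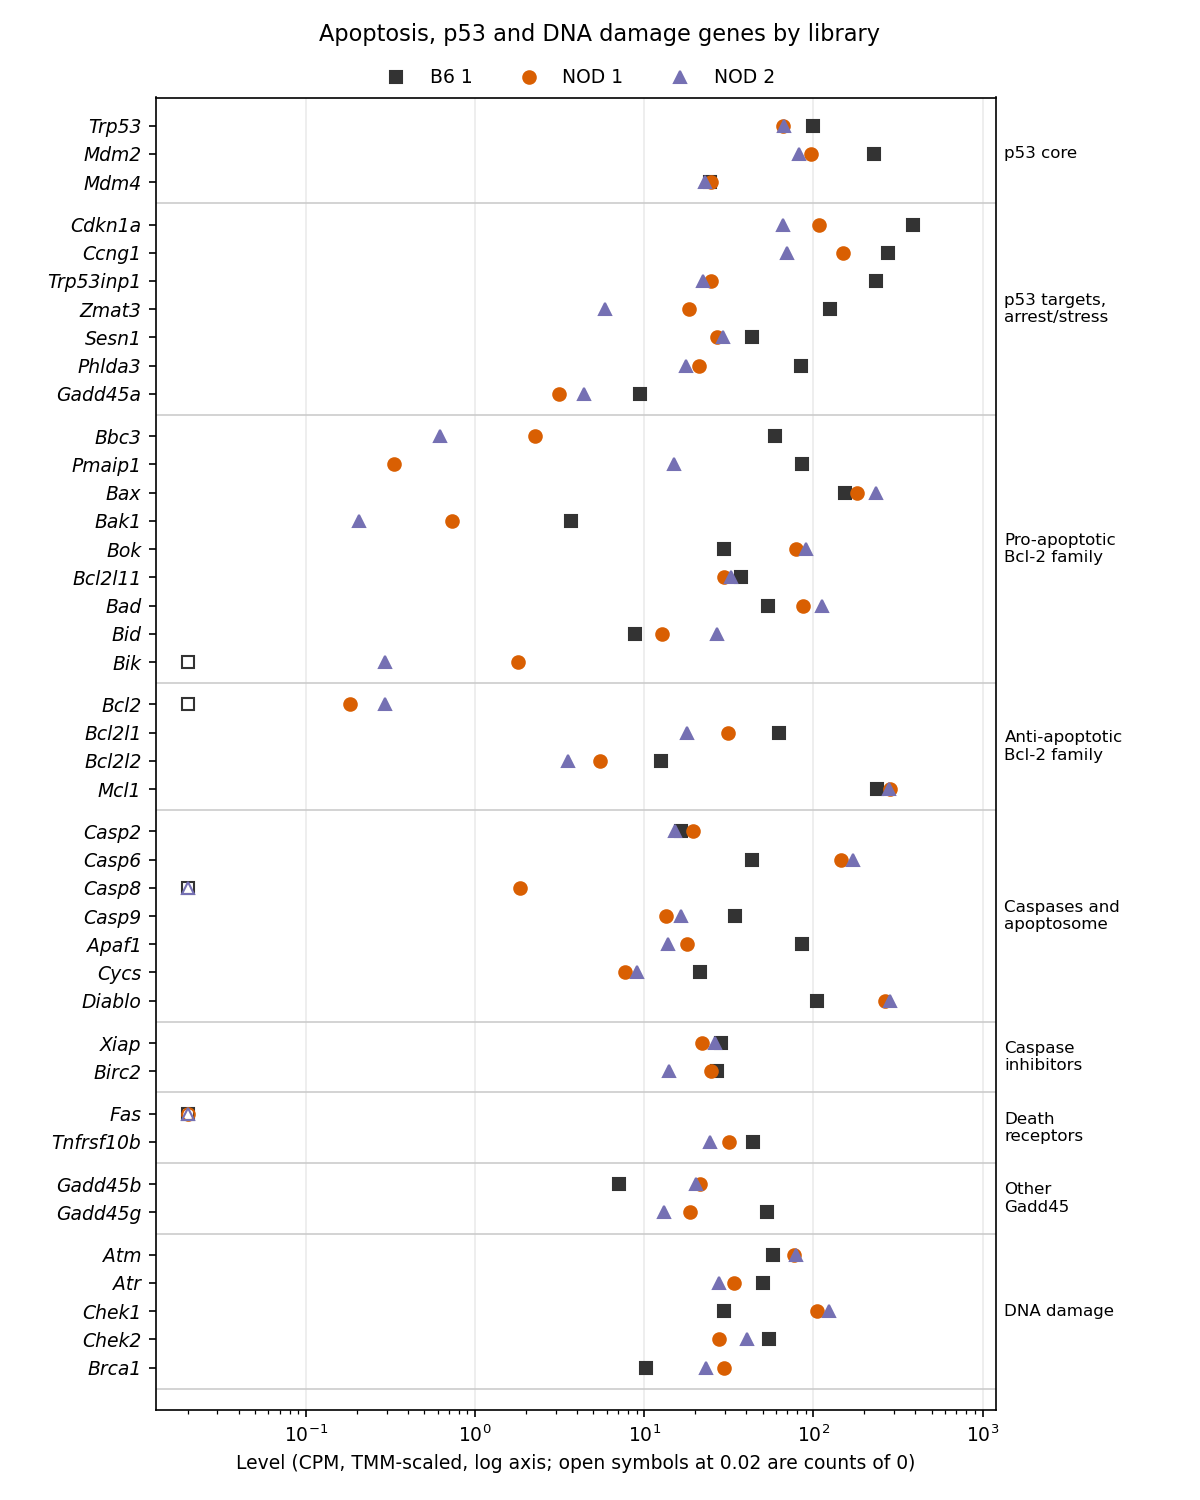
Level of each of the 41 members in B6 1 (squares), NOD 1 (circles) and NOD 2 (triangles) in TMM-scaled CPM on a log axis, grouped by role; open symbols placed at 0.02 stand for counts of 0. In the group of p53 targets the B6 square lies to the right of both NOD symbols in each of the 7 rows, and Fas was at 0 in all 3 libraries.

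Trp53, the gene of p53 itself, did not pass the test. It measured 66.4 CPM in NOD 1 and 66.9 in NOD 2 against 99.7 in B6, with a log2 fold change of -0.58 ± 0.30 (SE) and an edgeR adjusted p of 0.208. The NOD libraries were nearly equal to each other and both lay below B6. Mdm2 (chr10:117688875-117710758, minus strand, mm10), the ubiquitin ligase that marks p53 for degradation and is itself a p53 target, measured 227 CPM in B6 and 96.2 and 82.0 CPM in the NOD libraries. It was lower in NOD by 2.55 times, with a log2 fold change of -1.35 ± 0.26 (SE) and an edgeR adjusted p of 0.0367. Both NOD libraries were well below B6 and close to each other. Mdm4, which blocks the activation domain of p53 and is less dependent on p53 for its expression, measured 24.4 CPM in B6 against 24.8 in NOD 1 and 22.9 in NOD 2 and had a log2 fold change of -0.03 ± 0.40 (SE), with B6 between the NOD libraries.

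The next group holds 7 p53 targets of cell cycle arrest and stress. In each of the 7 both NOD libraries lay below B6, as they did for 39.4% of all tested genes. Of the 7, 4 were called lower and none higher, against 7.39% and 10.3% of all tested genes. The median log2 fold change was -2.12. Summed over the 7, the level was 352 CPM in NOD 1 and 216 in NOD 2 against 1161 in B6. Cdkn1a (chr17:29093772-29100722, plus strand), the p21 inhibitor of cyclin-dependent kinases, measured 389 CPM in B6 and 108 and 66.4 CPM in the NOD libraries. Per length it was the highest of the 41 in B6, at 204 FPKM (here the TMM-scaled CPM divided by the transcript length in kilobases), and was sixth and ninth in NOD 1 and NOD 2 at 56.7 and 34.9 FPKM. The log2 fold change was -2.16 ± 0.35 (SE) with an edgeR adjusted p of 0.0283, and the difference from B6 was several times larger than that between the NOD libraries.

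Trp53inp1 (chr4:11156441-11174377, plus strand), a stress protein that promotes p53 activity, measured 234 CPM in B6 against 24.8 in NOD 1 and 22.2 in NOD 2. It was 9.97 times lower in NOD, with a log2 fold change of -3.32 ± 0.28 (SE) and an edgeR adjusted p of 0.0196. The NOD libraries differed by a factor of only 1.12, and this adjusted p was the smallest among the members. Zmat3 (chr3:32334794-32365665, minus strand), a zinc finger protein that binds RNA, measured 18.3 CPM in NOD 1 and 5.88 in NOD 2 against 125 in B6, with a log2 fold change of -3.37 ± 0.69 (SE) and an edgeR adjusted p of 0.0403. Both NOD libraries were low, but NOD 1 was 3.11 times NOD 2, the log2 fold change was -2.77 with NOD 1 alone and -4.40 with NOD 2 alone, and with upper-quartile scaling the call was lost. Phlda3 (chr1:135766085-135769134, plus strand), a repressor of Akt signalling, measured 84.8 CPM in B6 and 21.2 and 17.7 CPM in the NOD libraries, with a log2 fold change of -2.12 ± 0.35 (SE) and an edgeR adjusted p of 0.0291. Its NOD libraries lay close together, on average 4.36 times below B6.

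The other 3 genes of this group did not pass the test. Ccng1, cyclin G1, measured 276 CPM in B6 against 150.1 in NOD 1 and 70.1 in NOD 2, with a log2 fold change of -1.32 ± 0.47 (SE) and an edgeR adjusted p of 0.111. NOD 1 was 2.14 times NOD 2, a wider ratio than that of B6 to NOD 1. Sesn1, a sestrin that restrains mTORC1, measured 27.0 CPM in NOD 1 and 29.3 in NOD 2 against 43.5 in B6 (log2 fold change -0.63, SE 0.36). Gadd45a, a growth arrest gene induced by DNA damage, measured 9.39 CPM in B6 and 3.12 and 4.38 CPM in the NOD libraries (log2 fold change -1.32, SE 0.68). Both were below B6 in each NOD library, and for Gadd45a 19.1% of the exonic bases are shared with a gene on the other strand, which counting without strand cannot separate.

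**Figure D2:**
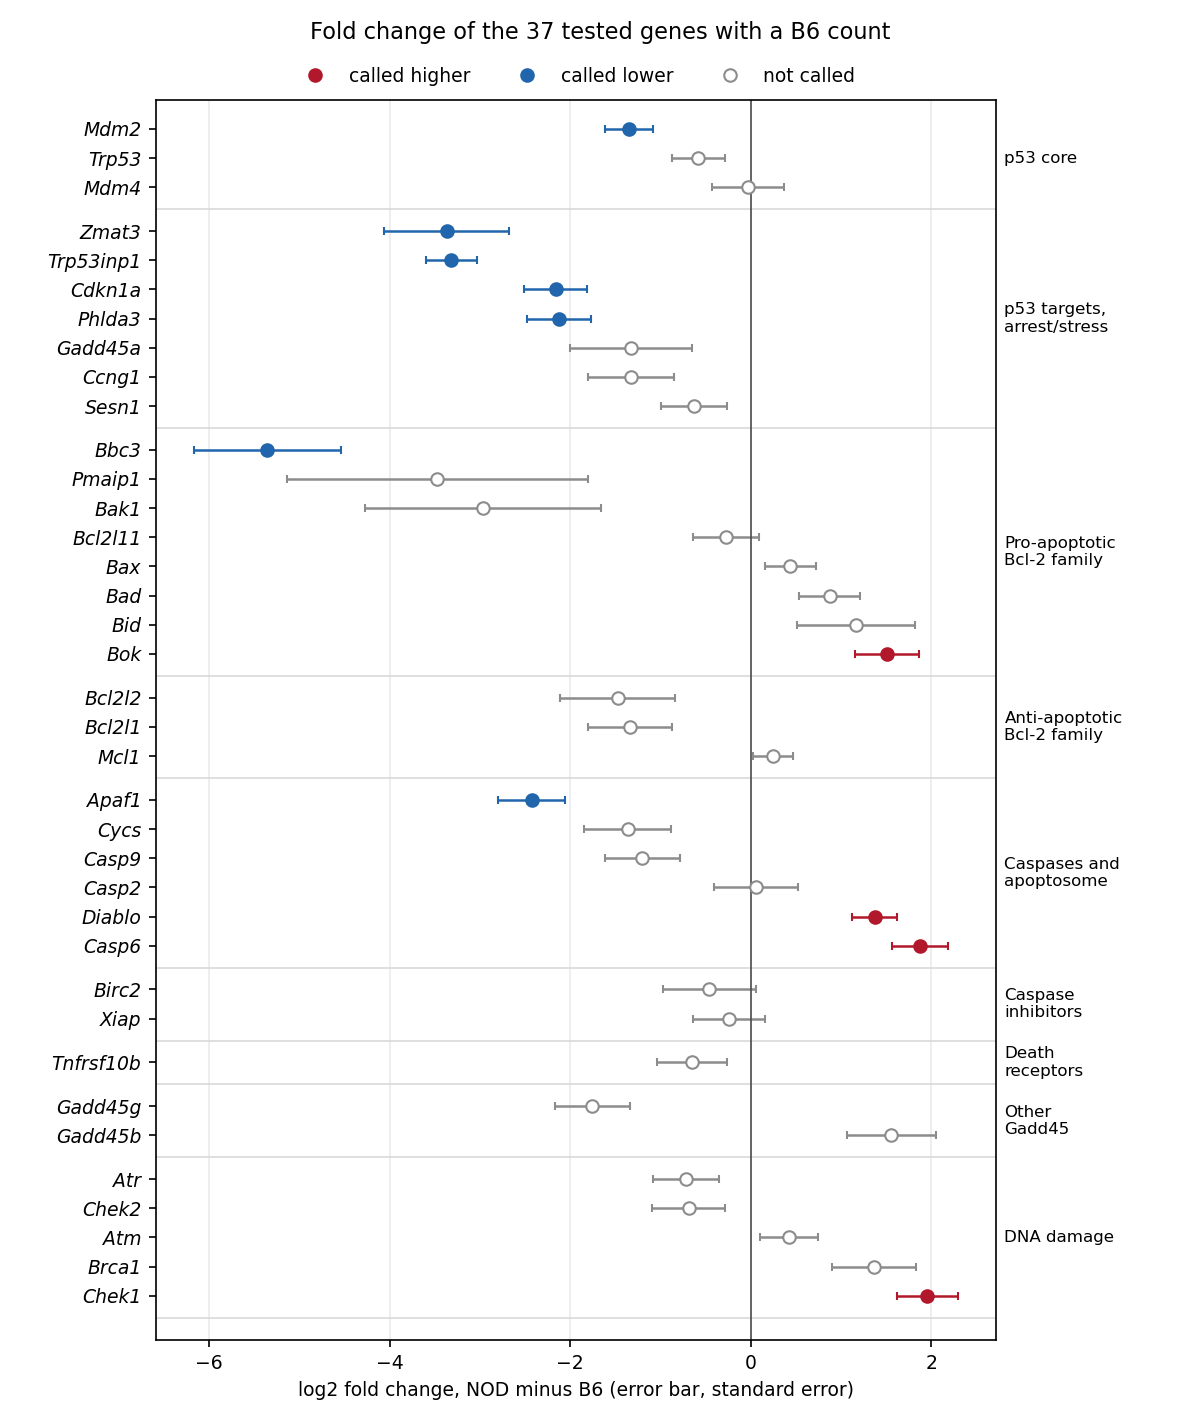
Fitted log2 fold change, NOD minus B6, with its standard error for the 37 tested members that had a B6 count, grouped by role; filled blue points were called lower, filled red points higher and open points were not called. The 7 blue points run from Bbc3 at -5.35 to Mdm2 at -1.35, and the 4 red points lie between Diablo at 1.38 and Chek1 at 1.95.

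The promoters of these genes were searched for the p53 half-site, the 10-letter consensus element bound by a p53 dimer, which is its own reverse complement, so that 1 search covers both strands. The windows are those of RefSeq on GRCm38.p6, from 250 bases before to 50 bases after an annotated start, and 36 of the 41 members have at least 1 of them, 48 windows in all, while Trp53inp1, Zmat3, Pmaip1, Bik and Tnfrsf10b have none. A half-site was present in 8.36% of the 32851 windows of all genes and in 8 of the 48 windows of the members, those of Trp53, Mdm2, Cdkn1a, Ccng1, Sesn1, Gadd45a, Bax and Birc2. A pair of adjoining half-sites with at most 1 letter off and with each core C and G intact, which overlaps the half-sites, was present in 22 of the 32851 windows, or 0.0670%, and in 2 windows of the members, those of Cdkn1a and Ccng1. Both pairs are 1 letter off. The 3 windows below show where the matches, in capitals, lie in Mdm2, Cdkn1a and Ccng1, which carry the feedback loop and the arrest arm of the response. They are written 5′ to 3′ on the strand of the gene.
Cdkn1a, chr17:29090729-29091028, plus strand: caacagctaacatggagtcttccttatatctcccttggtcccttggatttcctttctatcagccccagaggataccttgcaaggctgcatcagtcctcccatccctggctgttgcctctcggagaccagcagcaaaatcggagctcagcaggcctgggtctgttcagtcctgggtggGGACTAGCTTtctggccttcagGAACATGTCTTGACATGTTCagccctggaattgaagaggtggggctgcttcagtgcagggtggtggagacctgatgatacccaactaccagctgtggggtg
Ccng1, chr11:40755237-40755536, minus strand: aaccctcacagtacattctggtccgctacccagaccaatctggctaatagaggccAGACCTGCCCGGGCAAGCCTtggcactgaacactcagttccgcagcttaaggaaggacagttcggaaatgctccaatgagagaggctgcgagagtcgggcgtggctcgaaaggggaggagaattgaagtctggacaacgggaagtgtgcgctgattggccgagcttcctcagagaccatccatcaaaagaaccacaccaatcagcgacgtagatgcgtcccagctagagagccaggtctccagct
Mdm2, chr10:117710709-117711008, minus strand: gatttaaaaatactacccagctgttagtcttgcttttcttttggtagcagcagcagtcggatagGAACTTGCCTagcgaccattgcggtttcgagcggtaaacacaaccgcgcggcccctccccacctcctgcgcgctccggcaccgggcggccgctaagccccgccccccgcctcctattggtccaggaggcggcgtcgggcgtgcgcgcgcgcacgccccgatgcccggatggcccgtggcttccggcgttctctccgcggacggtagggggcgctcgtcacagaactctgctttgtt
In Cdkn1a, whose window belongs to a start upstream of the transcript counted here, the pair begins 51 bases before that start and a separate half-site begins 73 bases before it. In Ccng1 the pair begins 195 bases before the start, and in Mdm2 the single half-site begins 186 bases before it. Among the 7 members called lower, 5 have a window, and of these Phlda3, Bbc3 and Apaf1 hold no half-site in it, which says only that these letters are not in these windows. These matches are descriptions of the sequence and no binding was measured here.

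Of the 9 pro-apoptotic members of the Bcl-2 family, 1 was called lower and 1 higher, against 7.39% and 10.3% of all tested genes. The other 7 were not called. The median log2 fold change of the 9 was 0.44, and leaving out NOD 1 or NOD 2 moved it to 0.61 or 0.24. The BH3-only genes that p53 induces were far from this median. Bbc3 (chr7:16309583-16318334, plus strand), which encodes Puma, had counts of 805, 75 and 21 in B6, NOD 1 and NOD 2, or 59.1, 2.27 and 0.617 CPM. It was 40.9 times lower in NOD on average, with a log2 fold change of -5.35 ± 0.81 (SE) and an edgeR adjusted p of 0.0259, the largest decrease that was called among the members. Both NOD libraries were near the lower end of the scale, and the B6 to NOD 2 ratio of 95.7 had an exact Clopper-Pearson 95% interval of 62.2 to 156, which covers counting error only and not the gap between the NOD libraries. The log2 fold change was -4.70 with NOD 1 alone and -6.57 with NOD 2 alone.

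Pmaip1, which encodes Noxa, had counts of 1164, 11 and 512 and levels of 85.4 CPM in B6 against 0.333 in NOD 1 and 15.0 in NOD 2. Both NOD libraries were below B6, but NOD 2 was 45.2 times NOD 1, the widest gap between the NOD libraries among the members counted in both. The log2 fold change of -3.47 ± 1.67 (SE) did not pass the test (edgeR adjusted p = 0.189), and it was -7.98 with NOD 1 alone and -2.50 with NOD 2 alone. Bik, another BH3-only gene, had counts of 0, 59 and 10. The NOD mean was 4.72 times the 3 counts that a count of 0 allows in B6, a ratio that leaves out the counting error of NOD. NOD 2 alone was close to that floor, and Bik did not pass the test (edgeR adjusted p = 0.148).

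Bax and Bak1, the effectors that permeabilize the outer mitochondrial membrane, were measured at very different levels. Bax measured 181 CPM in NOD 1 and 234 in NOD 2 against 153 in B6, with a log2 fold change of 0.44 ± 0.28 (SE) and an edgeR adjusted p of 0.299, and it was slightly above B6 in both NOD libraries. Per length it was the highest member in NOD 1 and NOD 2, at 209.8 and 272 FPKM, and the next after Cdkn1a in B6, at 178 FPKM. Bak1 had counts of 50, 24 and 7, or 3.67 CPM in B6 and 0.726 and 0.206 CPM in the NOD libraries. It was low in every library and lowest in NOD, with a log2 fold change of -2.97 ± 1.30 (SE) that did not pass the test (edgeR adjusted p = 0.160). Bak1 lies within Ggnbp1 on the other strand, which covers 25.5% of its exonic bases and measured 41.8 CPM in B6 against 3.96 in NOD 1 and 0.529 in NOD 2, so that reads of the pair cannot be told apart in the shared part.

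Bok (chr1:93685694-93695762, plus strand), a relative of Bax and Bak1 that can act without them, measured 78.5 CPM in NOD 1 and 89.8 in NOD 2 against 29.5 in B6. It was 2.85 times higher in NOD, with a log2 fold change of 1.51 ± 0.35 (SE) and an edgeR adjusted p of 0.0495, just inside the threshold, and the call was lost with each of the other 3 scalings. The BH3-only genes that respond to growth factor and receptor signals did not pass the test. Bad measured 54.2 CPM in B6 and 86.9 and 112 CPM in the NOD libraries (log2 fold change 0.87, SE 0.34). Bid, which is cleaved by Casp8, measured 8.81 CPM in B6 against 12.7 in NOD 1 and 26.8 in NOD 2 (log2 fold change 1.17, SE 0.65). Both were above B6 in each NOD library, Bid with a wide spread within NOD. Of the exonic bases, 20.5% of Bad and 17.7% of Bid are also exonic on the other strand, in Gpr137 and Bcl2l13, and the part of these genes in the values was not tested. Bcl2l11, which encodes Bim, measured 29.7 CPM in NOD 1 and 32.4 in NOD 2 against 37.4 in B6 (log2 fold change -0.27, SE 0.37), and the 3 libraries were close together.

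None of the 3 anti-apoptotic members tested was called, where 10.3% of all tested genes were called higher and 7.39% lower. Mcl1, the short-lived guardian that preimplantation development requires, measured 237 CPM in B6 and 283 and 279 CPM in the NOD libraries, with a log2 fold change of 0.25 ± 0.23 (SE). The 3 libraries were close together, and per length Mcl1 was the highest anti-apoptotic member in each. Bcl2l1, which encodes Bcl-xL, measured 62.3 CPM in B6 against 31.4 in NOD 1 and 17.8 in NOD 2, with a log2 fold change of -1.34 ± 0.47 (SE) and an edgeR adjusted p of 0.104. Bcl2l2, which encodes Bcl-w, measured 5.45 CPM in NOD 1 and 3.53 in NOD 2 against 12.48 in B6 (log2 fold change -1.47, SE 0.64). Both were lower in each NOD library than in B6 without passing the threshold, and DESeq2 alone among the tests called Bcl2l1 lower. Bcl2, the founding member of the family, had counts of 0, 6 and 10 and was not tested. Its levels of 0.182 and 0.294 CPM in NOD 1 and NOD 2 lay on either side of the 0.220 CPM that the count of 0 in B6 allows, and a difference was not detectable at this depth.

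**Figure D3:**
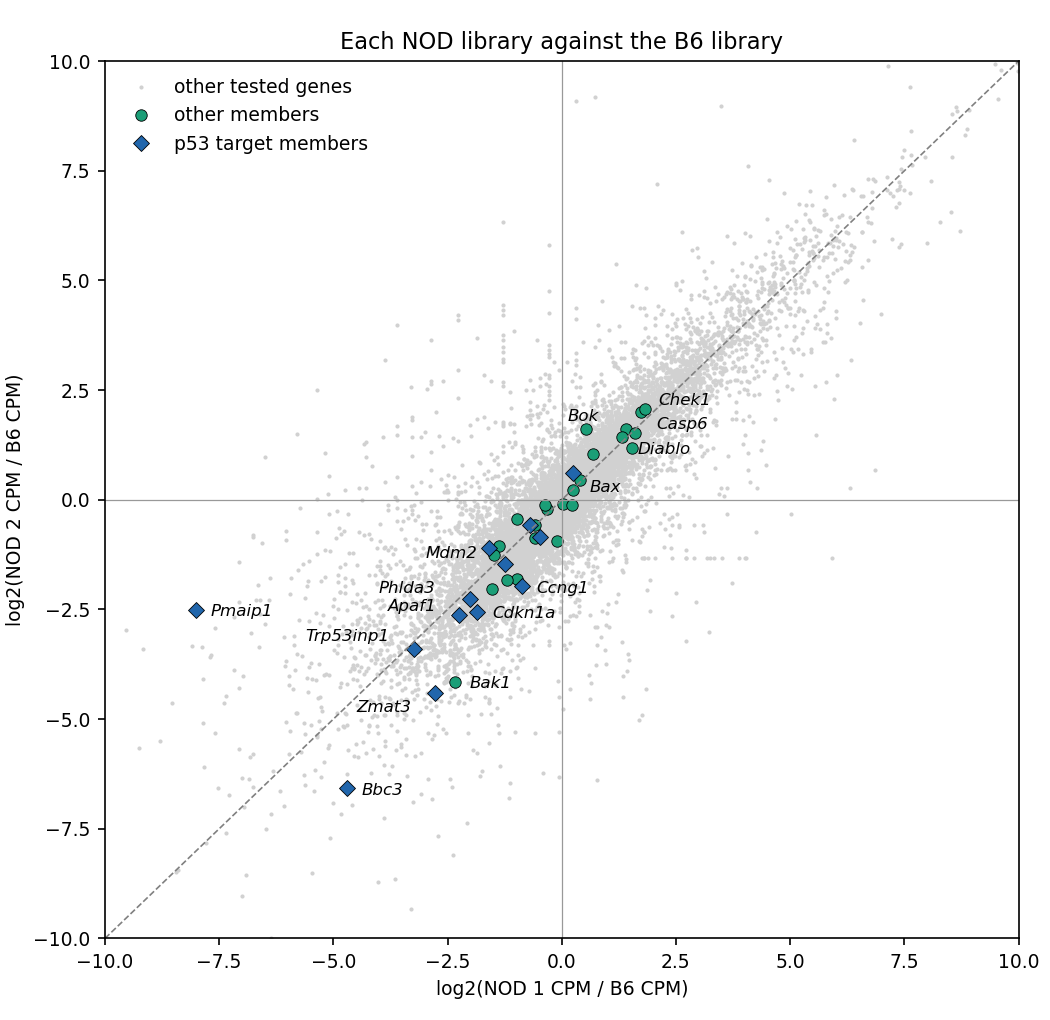
Each point is a gene with a count in every library, placed by log2 of its NOD 1 to B6 ratio of CPM (horizontal) and of its NOD 2 to B6 ratio (vertical), with 12211 tested genes of which 37 are members; 8 genes lie outside the axes, and the dashed line marks equal ratios. The 13 p53 targets among the members (diamonds) lie below 0 on both axes except Bax, and Pmaip1 lies farthest from the dashed line among the members. The axes share the B6 library, so that its own error moves every gene along the dashed line.

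Of the 7 caspase and apoptosome members, 2 were called higher and 1 lower, against 10.3% and 7.39% of all tested genes. The other 4 were not called. Apaf1 (chr10:90989311-91082743, minus strand), the scaffold of the apoptosome and a p53 target, measured 85.4 CPM in B6 and 18.0 and 13.8 CPM in the NOD libraries. It was 5.37 times lower in NOD, with a log2 fold change of -2.42 ± 0.37 (SE) and an edgeR adjusted p of 0.0261. Its partners in the apoptosome also measured less in both NOD libraries than in B6 but did not pass the test. Casp9, the initiator caspase that Apaf1 activates, measured 34.5 CPM in B6 against 13.4 in NOD 1 and 16.6 in NOD 2, with a log2 fold change of -1.20 ± 0.41 (SE) and an edgeR adjusted p of 0.102. Cycs, somatic cytochrome c, measured 7.65 CPM in NOD 1 and 9.02 in NOD 2 against 21.4 in B6, with a log2 fold change of -1.36 ± 0.48 (SE) and an edgeR adjusted p of 0.108. The value of Cycs is uncertain, because 26.1% of the 50-base words in its transcripts also occur in other genes, led by its processed copies.

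Casp6 (chr3:129901425-129914102, plus strand), an effector caspase that cleaves lamins, measured 43.3 CPM in B6 and 145 and 172 CPM in the NOD libraries. It was 3.67 times higher in NOD, with a log2 fold change of 1.87 ± 0.31 (SE) and an edgeR adjusted p of 0.0291, and the NOD libraries were close together. Diablo (chr5:123511330-123524164, minus strand), a mitochondrial protein (Smac) that relieves caspases of their inhibitors, measured 105 CPM in B6 against 265 in NOD 1 and 282 in NOD 2. The log2 fold change was 1.38 ± 0.25 (SE) with an edgeR adjusted p of 0.0334, and both NOD libraries were more than 2.5 times B6. Of its exonic bases, 40.9% are also exonic in other genes, mainly B3gnt4 on the other strand, which measured 11.2 CPM in NOD 1 and 8.79 in NOD 2 against 16.3 in B6 and was thus lower in both NOD libraries without passing the test. Casp2, the caspase engaged by the PIDDosome, measured 16.5 CPM in B6 and 19.3 and 15.1 CPM in the NOD libraries (log2 fold change 0.06, SE 0.47), with B6 between the NOD libraries. Casp8, the initiator of the death receptor pathway, had counts of 0, 61 and 0 and was thus seen in NOD 1 alone. Its level there was 8.38 times the 3 counts allowed in B6, a ratio that leaves out the counting error of NOD 1.

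Neither inhibitor of caspases passed the test. Xiap, the X-linked inhibitor of Casp9 and of effector caspases, measured 28.3 CPM in B6 against 21.9 in NOD 1 and 26.1 in NOD 2 (log2 fold change -0.24, SE 0.40). Birc2, the ubiquitin ligase cIAP1, measured 25.0 CPM in NOD 1 and 14.02 in NOD 2 against 26.8 in B6 (log2 fold change -0.46, SE 0.51). For both, B6 was the highest library, though by a small margin over at least 1 NOD library. Since Xiap is X-linked, the sex-linked genes were also read, chosen after their values were seen. Xist had counts of 271, 67 and 4017 in B6, NOD 1 and NOD 2 and the Y-linked Ddx3y 1476, 3721 and 0, so that the Y-linked gene was counted in B6 and NOD 1 and was at 0 in NOD 2, as were the Y-linked Eif2s3y, Uty and Kdm5d. The part of this in the results was not tested.

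The death receptors were uneven. Fas had a count of 0 in all 3 libraries, which allows levels of up to 0.220 CPM in B6 and up to 0.0908 and 0.0882 CPM in NOD 1 and NOD 2. Tnfrsf10b, the mouse receptor for TRAIL and a p53 target, was present and measured 43.8 CPM in B6 and 31.5 and 24.4 CPM in the NOD libraries, with a log2 fold change of -0.65 ± 0.39 (SE) and an edgeR adjusted p of 0.264. It was lower in each NOD library than in B6 but did not pass the test. The Gadd45 genes that depend less on p53 lay on opposite sides of B6. Gadd45b, which responds to NF-κB and TGF-β signals, measured 7.05 CPM in B6 against 21.3 in NOD 1 and 20.2 in NOD 2, with a log2 fold change of 1.56 ± 0.49 (SE) and an edgeR adjusted p of 0.0869. Gadd45g measured 18.7 CPM in NOD 1 and 13.02 in NOD 2 against 53.4 in B6, with a log2 fold change of -1.75 ± 0.41 (SE) and an edgeR adjusted p of 0.0505, just outside the threshold. In both genes the NOD libraries lay on the same side of B6 and near each other, and Gadd45g was called lower in 4 of the 10 settings that were run.

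Of the 5 members in the group of DNA damage kinases and Brca1, 1 was called higher and none lower. Among all tested genes these shares were 10.3% and 7.39%. Chek1 (chr9:36708482-36726658, minus strand), the kinase that holds the cell cycle when replication stalls, measured 29.6 CPM in B6 and 105 and 124 CPM in the NOD libraries. It was 3.88 times higher in NOD, with a log2 fold change of 1.95 ± 0.34 (SE) and an edgeR adjusted p of 0.0312, and the NOD libraries were close together. Brca1, which acts in homologous recombination, measured 10.2 CPM in B6 against 29.4 in NOD 1 and 23.2 in NOD 2, with a log2 fold change of 1.36 ± 0.47 (SE) and an edgeR adjusted p of 0.102. It was above B6 in both NOD libraries without passing the test. Chek2, the kinase downstream of Atm, measured 27.6 CPM in NOD 1 and 40.3 in NOD 2 against 54.6 in B6 (log2 fold change -0.69, SE 0.40). Atm, which senses double-strand breaks, measured 57.7 CPM in B6 and 76.2 and 78.4 CPM in the NOD libraries (log2 fold change 0.42, SE 0.32). Atr, which senses single-stranded DNA, measured 50.6 CPM in B6 against 33.8 in NOD 1 and 27.8 in NOD 2 (log2 fold change -0.72, SE 0.37). None of these 3 passed the test, and Chek2 and Atr lay below B6 in both NOD libraries while Atm lay above.

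Ratios between partner genes within a library do not depend on the scaling of the libraries, and 13 ratios of FPKM were formed. They are given as values and were not tested, and an exact permutation test of 1 B6 library against 2 NOD libraries could not have given a p below 0.333. The ratio of Mdm2 to Mdm4 was 4.36 in NOD 1 and 4.03 in NOD 2 against 10.5 in B6, and that of Mdm2 to Trp53 was 1.37 in B6 and 0.871 and 0.737 in the NOD libraries. Mdm2 was thus above Trp53 per length in B6 and below it in both NOD libraries. The ratio of the anti-apoptotic Bcl2l1 to Bax was 0.145 in B6 against 0.0620 in NOD 1 and 0.0271 in NOD 2. The ratio of Mcl1 to Bcl2l1 was 6.25 in NOD 1 and 10.9 in NOD 2 against 2.64 in B6. Bcl2l1 was therefore lower in NOD relative to both of these partners, with NOD 2 farther from B6 than NOD 1 in each case. The ratio of Mcl1 to Bak1 was 36.99 in B6 and 223 and 776 in the NOD libraries, and that of Bax to Bak1 was 96.8 in B6 against 576 in NOD 1 and 2636 in NOD 2, both carried by the 7 to 50 counts of Bak1.

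Among the executors, Diablo to Xiap was 41.03 in NOD 1 and 36.6 in NOD 2 against 12.6 in B6, and the NOD libraries were alike and about 3 times B6. Apaf1 to Casp9 was 1.48 in B6 and 0.7999 and 0.496 in the NOD libraries, so that the scaffold was above its caspase per length in B6 and below it in NOD. Xiap to Casp9 was 0.488 in B6 against 0.9703 in NOD 1 and 0.937 in NOD 2. Chek1 to Chek2 was 2.51 in NOD 1 and 2.03 in NOD 2 against 0.357 in B6, and Atr to Atm was 1.30 in B6 and 0.658 and 0.527 in the NOD libraries. In both pairs of kinases the order of the partners was turned between B6 and both NOD libraries. Mdm4 to Trp53 was 0.131 in B6 against 0.1996 in NOD 1 and 0.183 in NOD 2, the smallest shift of the 12 ratios that have a B6 value, and Bcl2l1 to Bcl2 had no B6 value because Bcl2 was at 0.

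**Figure D4:**
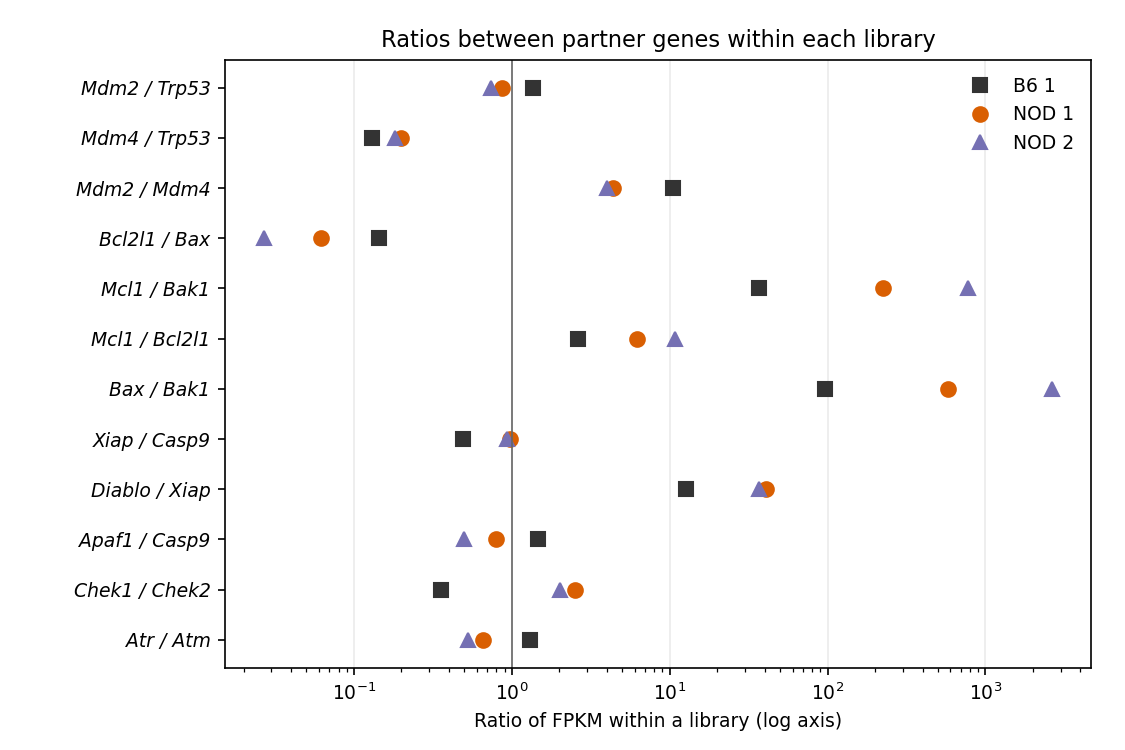
Ratios of FPKM between partner genes within B6 1 (squares), NOD 1 (circles) and NOD 2 (triangles) on a log axis, with a line at 1; Bcl2l1 to Bcl2 is left out for want of a B6 value. In each of the 12 ratios both NOD libraries lie on one side of B6, and Chek1 to Chek2 moves from below 1 in B6 to above 1 in NOD.

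When the targets of p53 were drawn together from all role groups, a grouping made after the values were seen, they numbered 14. Of these genes (Mdm2, the 7 of arrest and stress, Bbc3, Pmaip1, Bax, Apaf1, Tnfrsf10b and Fas), 13 were tested, 7 were called lower and none higher, against 7.39% and 10.3% of all tested genes, with a median log2 fold change of -2.12. Their summed level was 681 CPM in NOD 1 and 586 in NOD 2 against 1816 in B6. Of the other 27 members, 26 were tested, 4 were called higher and none lower, with a median of 0.01. No test of this difference was made.

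The order of the members by level per length also differed between the B6 library and the NOD libraries. With 1 B6 library, a trait of the strain cannot be told apart from a trait of that library. In B6 the highest were Cdkn1a, Bax, Ccng1, Mdm2 and Mcl1, so that 4 of the leading 5 were p53 targets, at 204, 178, 79.2, 73.6 and 68.1 FPKM. In NOD 1 the leading 5 were Bax, Diablo, Casp6, Mcl1 and Bad, at 209.8, 137, 100.3, 81.3 and 59.8 FPKM, and NOD 2 had the same 5 genes in the same order, at 272, 146, 119, 80.1 and 77.0 FPKM. Bad was followed closely in NOD 1 by the p53 target Cdkn1a, at 56.7 FPKM. Mcl1 and Bad were close in NOD 2, as were Ccng1 and Mdm2 in B6, and these neighbours cannot be ordered beyond the spread between the NOD libraries. Trp53 took a place from 8 to 9 in each library.

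The same was asked of further genes of these pathways that are not members. Of 36 other p53 targets, 34 were tested, of which 13 were called lower and 1 higher, against 7.39% and 10.3% of all tested genes, with a median log2 fold change of -1.46. Both NOD libraries lay below B6 for 25 of the 34, against 39.4% of all tested genes. Plk2, a polo-like kinase, measured 151 CPM in B6 and 1.82 and 0.147 CPM in the NOD libraries (log2 fold change -7.26, SE 1.19, edgeR adjusted p = 0.0285). Btg2, an antiproliferative gene, measured 126 CPM in B6 against 7.84 in NOD 1 and 5.44 in NOD 2 (log2 fold change -4.25, SE 0.40, edgeR adjusted p = 0.0196). Both were lower in NOD by a wide margin. Trp53i13 was the 1 called higher, with counts of 7, 774 and 865 in B6, NOD 1 and NOD 2 (log2 fold change 5.56, SE 0.65, edgeR adjusted p = 0.0215).

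The further lists of cell death and repair had medians nearer to that of all genes. Of 15 other Bcl-2 family genes and partners tested, 3 were called higher and 1 lower, against 10.3% and 7.39% of all tested genes. The median log2 fold change of the 15 was -0.13. Bcap31, an endoplasmic reticulum protein that binds Bcl-2, measured 1578 CPM in NOD 1 and 2096 in NOD 2 against 220.0 in B6, and Bnip3, a mitophagy receptor, measured 35.4 CPM in B6 and 195 and 241 CPM in the NOD libraries, with edgeR adjusted p of 0.0196 and 0.0216. Bag6, a chaperone of tail-anchored proteins, was lower in NOD at 304 CPM in B6 against 84.9 in NOD 1 and 51.3 in NOD 2 (edgeR adjusted p = 0.0299). Of 23 other caspases, regulators and adaptors tested, 4 were called lower and 1 higher, against 7.39% and 10.3% of all tested genes. The median of the 23 was 0.56. Among those called lower were the death-associated kinase Dapk1 at 9.35 CPM in NOD 1 and 6.58 in NOD 2 against 65.2 in B6 and the inhibitor Birc3 at 31.3 CPM in B6 and 5.57 and 7.41 CPM in the NOD libraries, with edgeR adjusted p of 0.0240 and 0.0413. Both were lower in each NOD library than in B6.

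The 42 other genes of the DNA damage response were all tested. Of these, 6 were called lower and 3 higher, against 7.39% and 10.3% of all tested genes. The median log2 fold change of the 42 was -0.01. Atrip, the partner of Atr, measured 3.67 CPM in B6 against 21.4 in NOD 1 and 38.9 in NOD 2 (edgeR adjusted p = 0.0415). Rad17, which loads the checkpoint clamp upstream of Chek1, measured 56.7 CPM in NOD 1 and 61.8 in NOD 2 against 13.9 in B6 (edgeR adjusted p = 0.0354). Ercc1, a nuclease subunit of excision repair, measured 15.1 CPM in B6 and 66.7 and 67.2 CPM in the NOD libraries (edgeR adjusted p = 0.0325). These 3 are the genes called higher. Ddb1, a DNA damage-binding subunit chosen after its values were seen, was among the 6 called lower and measured 1487 CPM in B6 against 377 in NOD 1 and 342 in NOD 2 (log2 fold change -2.05, SE 0.19, edgeR adjusted p = 0.0196). Of the 42 genes, 19 lay above and 19 below B6 in both NOD libraries, against 45.3% and 39.4% of all tested genes.

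**Figure D5:**
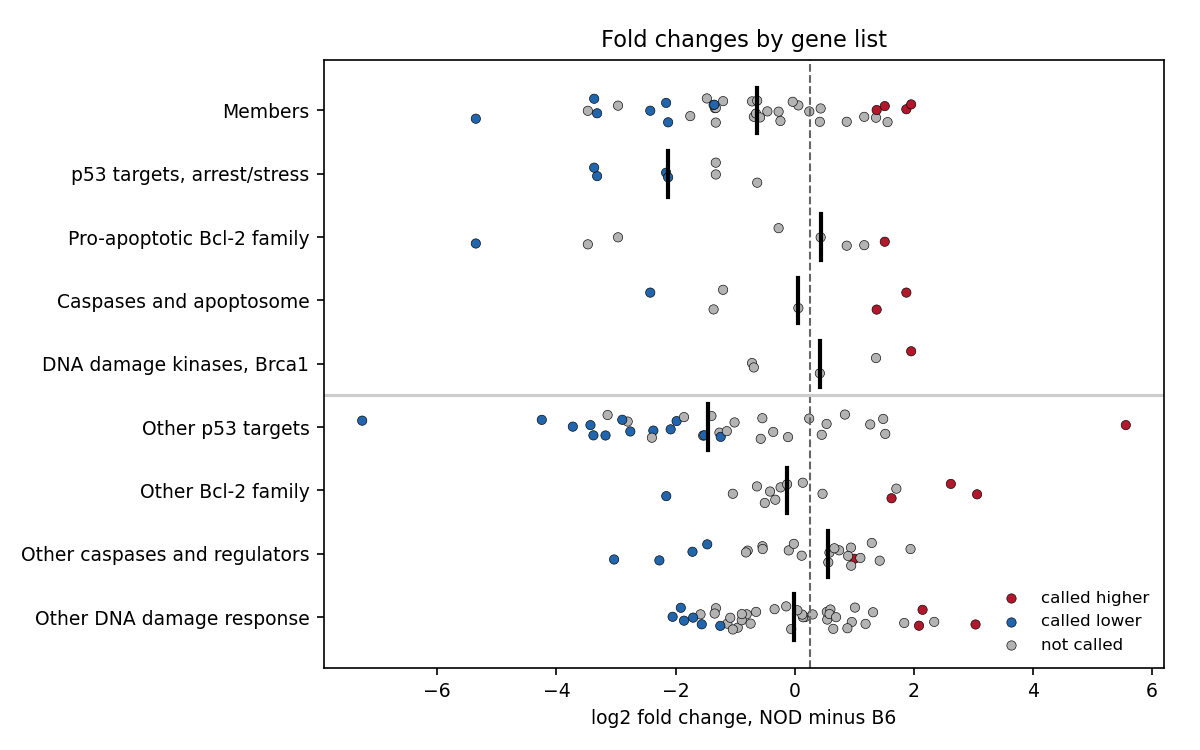
Fitted log2 fold change, NOD minus B6, of each tested gene by list, with members above the grey line and further lists below it; blue points were called lower, red points higher and grey points were not called. Black bars are medians over all tested genes of a list, the dashed line is the median of all 14456 genes, and genes with a count of 0 in B6 are not drawn because their fitted value is no bound. Both lists of p53 targets lie mostly to the left of the dashed line, with medians of -2.12 and -1.46.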

How the data were processed

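The members and gene lists were chosen with earlier results of these data known. The deposited values are read counts per RefSeq gene without normalization. The authors amplified cDNA from 3 blastocyst libraries (SMART-Seq v4, 19 PCR cycles, no molecular identifiers), read 50 bases from one end, mapped the reads with STAR to mm10, which is built from C57BL/6J, and counted exons with HOMER on both strands together. The submitters' processing notes name STAR 2.2.0c and CASAVA 1.8.2. How reads with several alignments were counted is not given in the sources used here.

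Analyses used R 4.3.3 and Python 3.11.15. Genes were kept by filterByExpr (minimum count 10) and tested with edgeR 4.0.16 (TMM factors, trended dispersion, quasi-likelihood, 1 residual and 3.78 prior degrees of freedom), with Benjamini-Hochberg adjustment over 14456 genes. Nothing says that the NOD libraries came from separate litters, so p-values measure only the spread between the 2 NOD libraries, which may be technical in part. The lone B6 library has no spread of its own and was assumed to vary like the NOD libraries. FPKM uses the listed transcript length. Exon overlaps come from GENCODE M21, whose spans overlap the table's for 98.6% of shared symbols, and 50-base words were matched to its transcripts on both strands. All members are named. From each further list the rule took at most 3 genes, those with the largest change among the eligible genes. Eligible genes were called, averaged 10 CPM or more and moved one way in both NOD libraries. The result for 1 of these further genes is left out here. Ddb1 was named outside this rule, after its values were seen. Alternatives were other size factors, no filter, no limit on the fold, DESeq2 1.42.0, limma-voom (limma 3.58.1), the legacy quasi-likelihood fit and each NOD library left out.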

Additional observations from a re-analysis of the deposited data

How the results depend on the processing

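With limma-voom, 0 genes and 0 members were called in either direction, although 3924 genes and 17 members had an unadjusted p under 0.05, and the smallest adjusted p of a member was 0.0631. With edgeR without a filter on low counts, 0 genes and 0 members were called, with 5568 genes and 16 members under an unadjusted 0.05 and a smallest adjusted p of 0.0649. DESeq2's test called 2346 genes higher and 1864 lower, the legacy quasi-likelihood fit 1994 higher and 1612 lower and upper-quartile factors 1016 higher and 701 lower, against 1483 higher and 1069 lower. Across the 8 settings that gave calls, 3 to 4 members were called higher and 6 to 10 lower. The setting without a limit on the fold reuses the main fit and repeats its member calls, so it is no separate fit. Chek1, Casp6, Diablo, Mdm2, Cdkn1a, Trp53inp1, Phlda3, Bbc3 and Apaf1 were called in 8 of 10 settings, Zmat3 in 7 and Bok in 5. Gadd45g was called lower in 4 settings, and Bcl2l1, Ccng1 and Pmaip1 in 1 each. Pmaip1 was called with the dispersion taken from the most expressed genes, an alternative chosen after seeing the data. With total counts the log2 fold change of Casp2 turned to -0.12 and the median of all genes to 0.07. The cause of these changes was not tested. With 1 NOD library left out, values have no test, and the 11 called members kept their direction. No paired analysis was possible because the B6 group has 1 library. Depth limits members with few or no counts in a library, such as Bak1 (7 counts in NOD 2), Bik and Bcl2 (0 in B6) and Casp8 (0 in B6 and NOD 2).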
